A study of Mus musculus with 4 samples.

Results

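Of the 43998 entries in the deposited table, 10 carry the symbols of Leydig cell steroidogenesis genes and are described here: Lhcgr, Scarb1, Star, Cyp11a1, Fdx1, Hsd3b1, Hsd3b6, Cyp17a1, Hsd17b3 and Insl3. Members were chosen by symbol, and each symbol occurred in 1 entry. The entry of Cyp11a1 also holds the long noncoding RNA gene Gm17322, and that of Insl3 also holds Jak3, a kinase gene of blood cells. RNA came from C57BL/6 mice at postnatal day 4. The mutant group, labelled germ cell RA signaling mutant, has impaired retinoic acid signalling in the germ cells (2 libraries), and the control group is labelled control (2 libraries). The labels name neither the modified gene nor the driver of the germ cell specificity. They give no treatment, and do not say whether the libraries came from separate animals. All cells were selected from testis with magnetic beads against CD90.2 (THY1), a surface marker of undifferentiated spermatogonia. The table holds 1 combined RPKM value (reads scaled to transcript length and library depth) for both libraries of a genotype, so there is no spread between replicates, no SD, no n and no p-value for any difference below.

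Leydig cells lie between the seminiferous tubules and make androgens from cholesterol when luteinizing hormone binds its receptor. Cholesterol is brought to the inner mitochondrial membrane and cut there to pregnenolone, and enzymes of the endoplasmic reticulum turn pregnenolone into androstenedione and testosterone. The newborn mouse testis holds fetal Leydig cells, and the adult population arises later. In bulk RNA, fewer cells of a type and less RNA per cell cannot be told apart. Nor can fewer cells of a type in the testis be told apart from a smaller share of them in the bead-selected preparation. The label of the samples is spermatogonia, and germ cell markers were present: all 15 listed markers, such as Dazl and Mael, had an RPKM of 1 or more. The steroidogenic transcripts were measured in the same bead-selected preparations.

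All 9 members that reached an RPKM of 1, called measured below, had a lower value in mutant than in control, and they reached it in both genotypes. Their summed level was 303 RPKM in mutant and 865 RPKM in control, so that the mutant sum was 35.0% of the control sum. On the scale of log2((mutant RPKM + 1) / (control RPKM + 1)), which understates differences of low genes, their median difference was -1.30, beside a median of 0.005 over all 16473 genes of the comparison. By a 2-fold rule on that scale 6 of the 9 were lower and 0 were higher. Over all genes 4.35% were lower by the same rule, 4.4% were higher, and 49.6% lay below 0. The 6 were Insl3, Cyp17a1, Cyp11a1, Hsd3b1, Lhcgr and Star, and 4 of them come from entries that hold no second gene. The remaining member, Hsd3b6, was close to 0 in both genotypes.

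**Figure D1:**
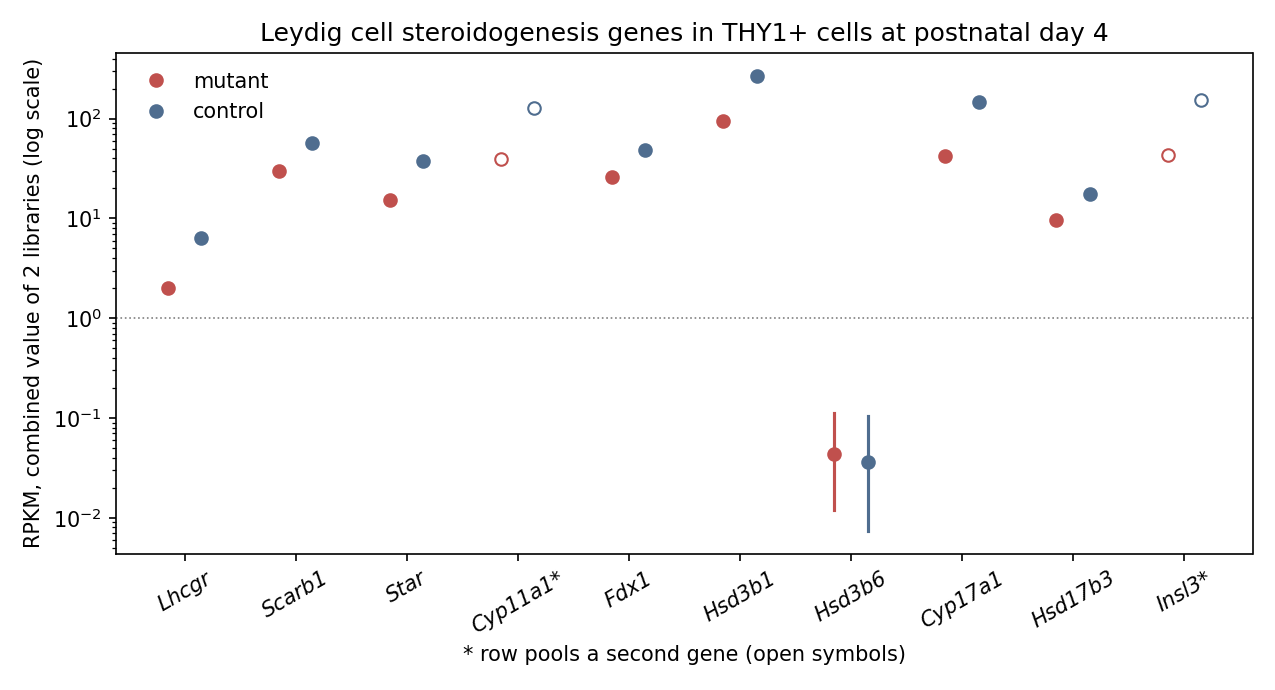
RPKM of the 10 genes on a log axis, with mutant (red) left of control (blue), 1 combined value per genotype. Vertical bars are 95% Poisson intervals of the reads (hidden by most symbols), open symbols mark the 2 entries that hold a second gene, and the dotted line is an RPKM of 1. Hsd3b1 is highest in both genotypes, at 94.7 RPKM in mutant and 266 RPKM in control, and Hsd3b6 is lowest.

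The order of the 10 levels was identical in both genotypes (Spearman's rho 1, across genes, as a description). It ran from Hsd3b1 through Insl3, Cyp17a1, Cyp11a1, Scarb1, Fdx1, Star, Hsd17b3 and Lhcgr to Hsd3b6. Low values of genes with 1 transcript stepped in whole reads, which placed the depth near 57.3 M reads in mutant and 56.5 M reads in control provided that the values were not rescaled in any other way. Counting intervals below rest on those depths and on the exons of 1 reference transcript per gene, and cover counting error only.

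Promoter windows from RefSeq on GRCm38.p6 were found for 7 of the 10 genes, from 250 bases before the annotated start to 50 after it. They were searched because NR5A1 (SF-1), the nuclear receptor that activates steroidogenic genes, binds half-sites that contain the letters searched here. Whether NR5A1 has a part in the differences between genotypes was not tested. The first motif was TCAAGG, the second began with C in place of T (CCAAGG), and the third, AAGGTCA, overlaps both, so 1 site can match more than 1 of them. Both strands were searched. Capitals mark a match, which on the opposite strand reads as CCTTGA. The first 4 windows below are of genes lower by 2-fold or more, and the last is of Hsd3b6, the close relative of Hsd3b1 that was near 0. Windows of Fdx1 and Hsd17b3, which did not meet the 2-fold rule, are not printed. For Star, Cyp17a1 and Scarb1 no window was found, so the motifs could not be searched there.
Insl3 (chr8:71689002-71689301, plus strand): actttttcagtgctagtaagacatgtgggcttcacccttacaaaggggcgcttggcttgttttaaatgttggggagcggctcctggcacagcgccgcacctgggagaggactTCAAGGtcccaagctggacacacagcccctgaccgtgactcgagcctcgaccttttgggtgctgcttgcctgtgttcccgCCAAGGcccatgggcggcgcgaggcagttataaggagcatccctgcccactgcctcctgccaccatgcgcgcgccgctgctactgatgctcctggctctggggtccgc
Cyp11a1 (chr9:58014702-58015001, plus strand, the second of its 2 annotated starts): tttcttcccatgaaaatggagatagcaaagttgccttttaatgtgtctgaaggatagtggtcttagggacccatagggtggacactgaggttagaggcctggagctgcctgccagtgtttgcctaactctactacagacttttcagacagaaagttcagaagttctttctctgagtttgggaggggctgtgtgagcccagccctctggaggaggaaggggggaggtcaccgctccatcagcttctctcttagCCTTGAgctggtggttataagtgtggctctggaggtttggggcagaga
Hsd3b1 (chr3:98859745-98860044, minus strand): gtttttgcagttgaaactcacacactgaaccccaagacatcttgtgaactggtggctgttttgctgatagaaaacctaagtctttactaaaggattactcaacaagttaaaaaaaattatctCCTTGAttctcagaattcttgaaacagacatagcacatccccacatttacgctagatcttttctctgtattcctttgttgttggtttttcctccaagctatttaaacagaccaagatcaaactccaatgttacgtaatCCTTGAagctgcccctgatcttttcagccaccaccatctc
Lhcgr (chr17:88791965-88792264, minus strand): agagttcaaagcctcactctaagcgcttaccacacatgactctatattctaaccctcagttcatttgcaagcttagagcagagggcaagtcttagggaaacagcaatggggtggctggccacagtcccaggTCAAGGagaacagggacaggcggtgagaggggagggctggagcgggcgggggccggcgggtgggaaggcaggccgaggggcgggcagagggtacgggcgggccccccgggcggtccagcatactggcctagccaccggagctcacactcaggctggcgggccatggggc
Hsd3b6 (chr3:98814394-98814693, minus strand): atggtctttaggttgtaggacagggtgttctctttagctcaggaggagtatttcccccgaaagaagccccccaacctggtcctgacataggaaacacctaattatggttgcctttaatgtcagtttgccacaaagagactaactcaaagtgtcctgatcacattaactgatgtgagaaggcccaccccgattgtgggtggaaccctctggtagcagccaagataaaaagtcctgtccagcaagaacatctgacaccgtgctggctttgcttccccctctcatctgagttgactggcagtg

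TCAAGG occurred in the windows of 5 of the 7 genes, namely Insl3, Cyp11a1, Hsd3b1, Lhcgr and Fdx1. For Cyp11a1 it began 3 bases after the second start, and the window of the first start (chr9:57997774-57998073), which spans the beginning of its row, held none of the 3 motifs. TCAAGG occurred in 16.4% of the 27025 genes with a window. CCAAGG was found in 1 member, Insl3, and in 23.6% of all genes, and AAGGTCA in 0 members and 5.38% of all genes. The Insl3 matches began 138 and 58 bases before the start, that of Lhcgr 119 bases before it, and those of Hsd3b1 128 bases before and 11 bases after it. Fdx1, which did not meet the 2-fold rule, had matches that began 122 and 74 bases before the start. Windows of Hsd3b6 and Hsd17b3 held none of the 3 motifs. A match is a description of letters, and binding was not measured.

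Lhcgr encodes the receptor for luteinizing hormone, which starts steroid synthesis through cyclic AMP. Its row spans chr17:88741549-88791976 (GRCm38, minus strand), and its level was 2.01 RPKM in mutant and 6.40 RPKM in control. The mutant value was 31.3% of control (95% counting interval 27.2 to 36.0), with about 269 mutant reads and 848 control reads behind it. It was the lowest of the 9 measured members, and 1.82% of all genes had a log2 difference as low as its -1.30.

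Scarb1 and Star supply the cholesterol. Scarb1, the receptor that takes up cholesterol from high-density lipoprotein and that many cell types use, was at 29.8 RPKM in mutant and 57.3 RPKM in control (52.1% of control, counting interval 50.1 to 54.1). Its log2 difference of -0.92 did not meet the 2-fold rule. Star, which carries cholesterol into the mitochondrion and limits the rate of steroid synthesis, was at 15.5 RPKM in mutant and 37.9 RPKM in control (40.8%, 38.8 to 42.8). Star met the rule at -1.24, and the counting intervals of the 2 genes did not overlap.

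Cyp11a1 and Fdx1 act in side-chain cleavage, the first enzymatic step. Cyp11a1, the cleavage enzyme, was at 39.0 RPKM in mutant and 129 RPKM in control (log2 difference -1.70), in a row from 57998041 to 58027023 on chromosome 9 that also covers Gm17322. Fdx1, the ferredoxin that passes electrons to mitochondrial P450 enzymes, was at 26.0 RPKM in mutant and 48.3 RPKM in control. The Fdx1 mutant value was 53.9% of control (49.8 to 58.4), a log2 difference of -0.87 that did not meet the rule, while that of Cyp11a1 was 30.2% of control.

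The 3-beta-hydroxysteroid dehydrogenases turn pregnenolone into progesterone and exist in the mouse as a family of near relatives clustered on chromosome 3. Hsd3b1 (chr3:98852194-98859794, minus strand) was at 94.7 RPKM in mutant and 266 RPKM in control, which is 35.7% of control (34.8 to 36.6) and a log2 difference of -1.48. Hsd3b6 (chr3:98805504-98814443, minus strand), which marks adult Leydig cells in the mouse, stood at 0.0437 RPKM in mutant and 0.0358 RPKM in control. That is about 4 mutant reads and 3 control reads. Both are at or next to a floor of 3 reads, so no fold is given, and at this depth Hsd3b6 was at the limit of detection. The Hsd3b1 and Hsd3b6 reference transcripts were 82.6% identical over 1633 aligned bases and shared 38 stretches of 50 bases, 2.35% of those in Hsd3b1 and 2.17% of those in Hsd3b6. Reads from such stretches can be assigned to either gene.

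Cyp17a1 makes the androgen precursors from pregnenolone and progesterone, and is the enzyme that commits steroids to the androgen route. It was at 42.7 RPKM in mutant and 148 RPKM in control (chr19:46667165-46672974, minus strand). The mutant value was 28.9% of control (27.9 to 29.9), with about 3928 mutant and 13400 control reads, and it was the lowest ratio among members with an entry of their own. Hsd17b3, which reduces androstenedione to testosterone and in the fetal mouse testis is expressed in Sertoli cells, was at 9.70 RPKM in mutant and 17.7 RPKM in control. That is 54.7% of control (49.0 to 61.0), the highest ratio among the 9 members, and its log2 difference of -0.81 did not meet the 2-fold rule.

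Insl3, the peptide hormone of Leydig cells that drives testicular descent, had the lowest ratio of all. The row was at 43.2 RPKM in mutant and 154 RPKM in control, 28.0% of control, with a log2 difference of -1.81 that 0.911% of all genes matched or undercut. The row runs from 71676296 to 71690575 on chromosome 8 and also covers Jak3, within whose 3′ part Insl3 lies on the same strand, so the reads of both are in 1 value. The part of Jak3 in this value was not tested. After correction for length and GC content Insl3 was no longer lowest, at -1.52 beside -1.68 for Cyp17a1 and -1.55 for Cyp11a1. Without the pooled entries of Insl3 and Cyp11a1, 4 of 7 members were lower by the 2-fold rule and the median was -1.24.

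**Figure D2:**
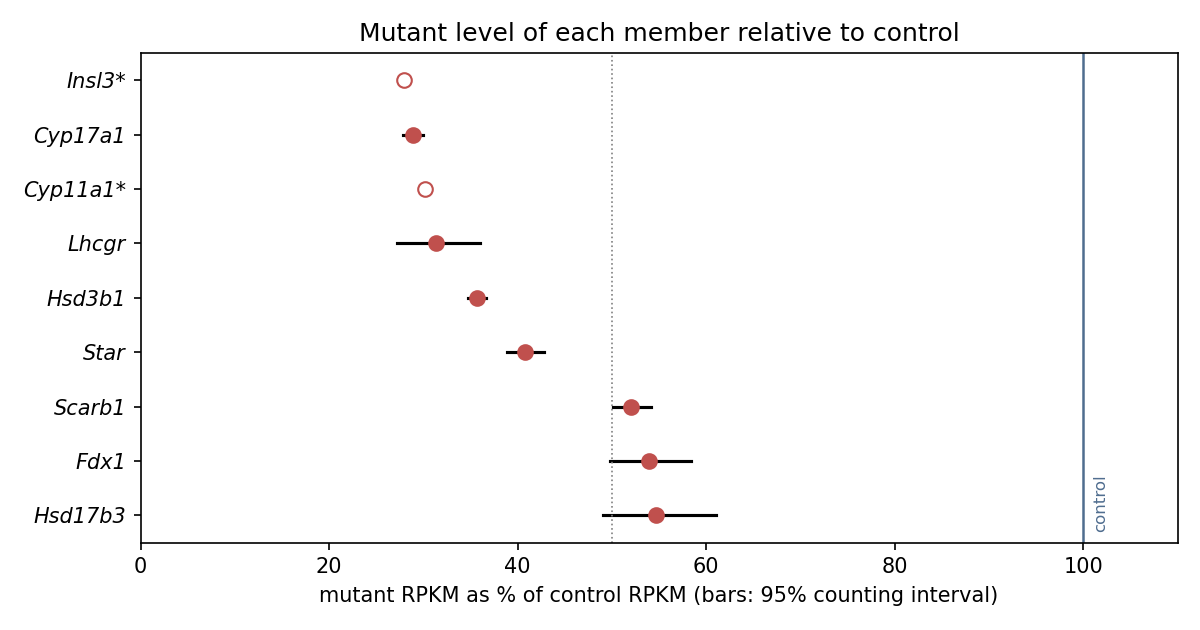
Mutant RPKM as a percentage of control RPKM for the 9 measured members, lowest at the top. Bars are 95% counting intervals (none for the 2 open symbols, whose entries hold a second gene), the blue line is the control level and the dotted line 50%. The 6 lowest genes lie between 28.0% and 40.8%, and Scarb1, Fdx1 and Hsd17b3 lie between 52.1% and 54.7%.

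The members thus lay in 2 ranges, with 6 genes at 28.0% to 40.8% of control and 3 genes at 52.1% to 54.7%. The gap between Star and Scarb1 exceeds counting error, but without a value per library it cannot be set against biological spread. Relative to Hsd3b1 in the same genotype, Fdx1 stood at 0.275 in mutant and 0.182 in control, and Scarb1 at 0.315 in mutant and 0.216 in control. Cyp17a1 stood at 0.451 of Hsd3b1 in mutant and 0.556 in control. The proportions among the transcripts therefore differed between genotypes, while their order was the same.

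**Figure D3:**
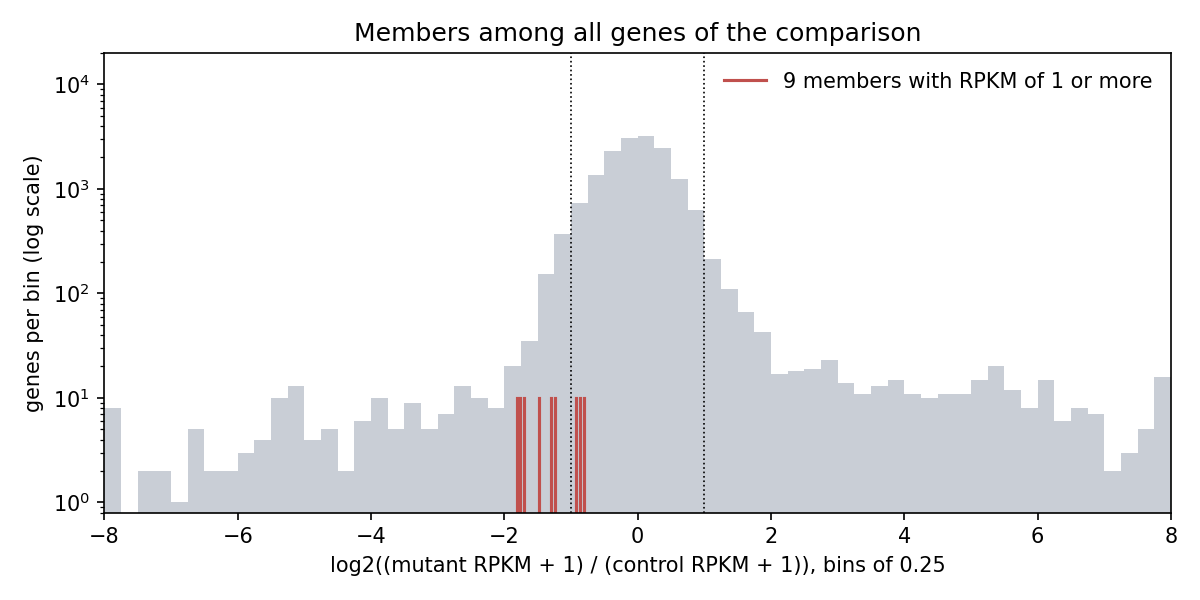
Number of genes per bin of log2 difference (grey, log axis, 16473 genes) with the 9 members as red lines and dotted lines at the 2-fold rule. The 2 outermost bins also hold values beyond them. The members lie between -1.81 and -0.81, on the low side of the main peak.

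Genes that serve the steroid enzymes were lower in mutant for all 14 listed electron donors and cholesterol handling genes, with a median of -0.70, and 2 met the 2-fold rule. These were Cyb5a, the cytochrome b5 that aids the lyase reaction of CYP17A1, at 74.2 RPKM in mutant and 150 RPKM in control, and Tspo, a cholesterol-binding protein of the outer mitochondrial membrane, at 18.3 RPKM in mutant and 37.7 RPKM in control. Both passed narrowly, at -1.009 for Cyb5a and -1.003 for Tspo, and neither passed with quantile normalization (-0.93 for Cyb5a, -0.97 for Tspo) or after correction for length and GC content (-0.85 and -0.69). Abca1, a cholesterol exporter, was at 65.3 RPKM in mutant and 108 RPKM in control, and Soat1, which esterifies cholesterol, at 49.7 RPKM in mutant and 79.7 RPKM in control. Neither met the rule. Fdxr, which hands electrons to FDX1, and Por, which hands them to CYP17A1, were named after their values were seen. Fdxr was at 14.4 RPKM in mutant and 28.2 RPKM in control, and Por at 35.9 RPKM in mutant and 57.9 RPKM in control.

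Other steroid-metabolizing enzymes had a mixed picture. Of 20 listed, 12 were measured, 8 below 0 and 4 above, with a median of -0.18 and 0 past the 2-fold rule in either direction. Hsd17b12, which acts mainly in fatty acid elongation, was at 61.2 RPKM in mutant and 80.9 RPKM in control, and Hsd17b4, a peroxisomal enzyme, at 42.5 RPKM in mutant and 44.2 RPKM in control. The value farthest above 0 was that of Hsd3b2, singled out after the values were seen, at 9.78 RPKM in mutant and 5.07 RPKM in control (log2 difference 0.83). Its reference transcript is 90.9% identical to that of Hsd3b6 and 81.5% to that of Hsd3b1. It shares 13.6% of its stretches of 50 bases with Hsd3b6 and 1.15% with Hsd3b1, and the assignment of reads from such stretches is uncertain. The entry spans the same interval as those of Hsd3b3, Hsd3b4 and Hsd3b5, whose sequences were not compared. Adrenal-type genes were low: Cyp21a1 was at 2.15 RPKM in mutant and 4.65 RPKM in control, Cyp11b1 at 0.715 RPKM in mutant and 1.12 RPKM in control, and Mc2r and Cyp11b2 stayed under 1 RPKM in both.

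All 12 listed transcription factors of steroidogenic cells lay below 0, with a median of -0.68, and 3 met the rule. Which cell types in the preparation their transcripts came from was not tested. Nr5a1, the gene of NR5A1, was at 11.2 RPKM in mutant and 23.9 RPKM in control (log2 difference -1.03). A link between its level and those of the members was not tested. Cebpb was at 6.18 RPKM in mutant and 14.4 RPKM in control, and Tcf21, a factor of interstitial progenitors, at 3.92 RPKM in mutant and 8.87 RPKM in control. The call of Nr5a1 ended with quantile normalization (-0.995) and after correction for length and GC content (-0.91). The Tcf21 call, at -1.005, ended after the correction for length and GC content (-0.87). Gata4, which is shared by Leydig and Sertoli cells, was at 14.4 RPKM in mutant and 25.6 RPKM in control (-0.79). Nr4a1, an immediate early nuclear receptor induced by luteinizing hormone, was closer together at 20.2 RPKM in mutant and 24.4 RPKM in control.

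Downstream of the receptor, the 18 genes of the cyclic AMP and protein kinase A list had a median of -0.14 with 0 past the rule, 13 below 0 and 5 above. Gnas, the stimulatory G protein subunit, was at 125 RPKM in mutant and 220 RPKM in control (-0.81), while Prkar1a, a regulatory subunit of protein kinase A, was at 57.7 RPKM in mutant and 67.2 RPKM in control. Hedgehog genes, whose ligand from Sertoli cells drives fetal Leydig cell formation, also held 0 genes past the rule among 7 measured. The ligand gene Dhh was at 6.16 RPKM in mutant and 12.1 RPKM in control, and its receptor gene Ptch1 at 22.9 RPKM in mutant and 16.0 RPKM in control.

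Of 19 cholesterol synthesis genes, 18 were found and measured, 16 below 0, with a median of -0.37. The sterol isomerase gene Ebp alone met the rule, at 14.5 RPKM in mutant and 33.7 RPKM in control. Hmgcs1, which makes the precursor of mevalonate, was at 61.5 RPKM in mutant and 94.2 RPKM in control. Among receptors for testicular hormones the direction was the other way for 4 of 5 measured genes, with a median of 0.38 and 0 past the rule. Esr1, the oestrogen receptor, was at 8.09 RPKM in mutant and 4.72 RPKM in control. This median was -0.21 after rescaling to the germ cell markers. Rxfp2, the INSL3 receptor, named outside the rule and after its value was seen, was at 0.0381 RPKM in mutant and 0.0358 RPKM in control, below the level used here.

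Over all 8 pathway lists 88 genes were measured, with a median of -0.40. Of these, 71 (80.7%) lay below 0, beside 49.6% of all genes, and 6 (6.82%) were lower by the 2-fold rule, beside 4.35% of all genes. After rescaling to the germ cell markers 43.7% of the pathway genes and 17.3% of all genes were lower by the rule.

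**Figure D4:**
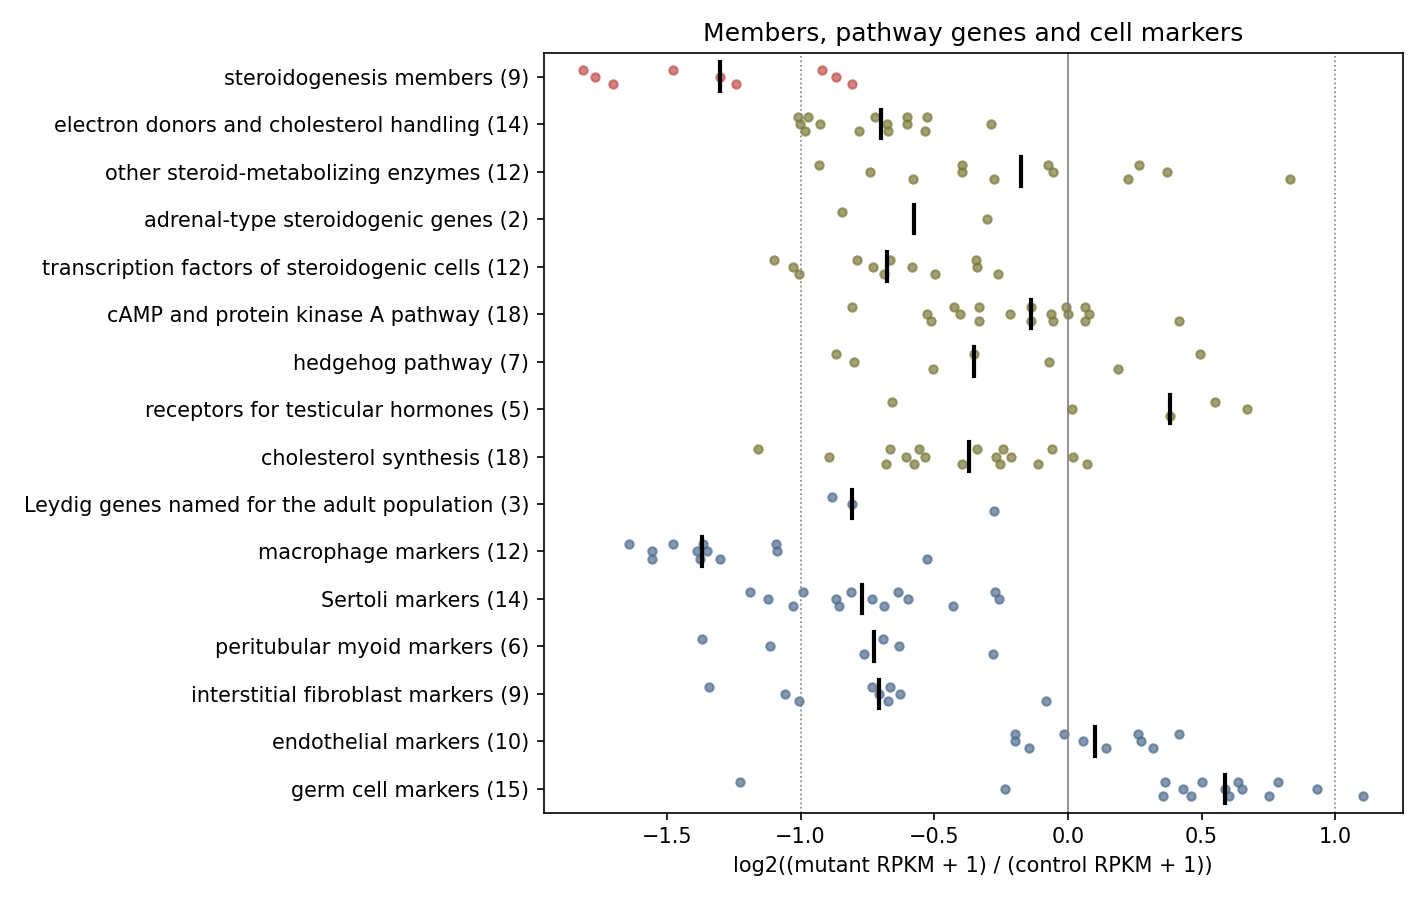
Log2 difference of each measured gene, by list (number of genes in brackets), with members in red, pathway lists in olive and cell markers in blue. Black bars are medians and dotted lines the 2-fold rule; the members' median is -1.30, that of macrophage markers -1.37 and that of germ cell markers 0.59.

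Markers that separate fetal from adult Leydig cells were few at this level. Of 3 genes listed for the fetal population only Thbs2 reached an RPKM of 1, at 3.41 RPKM in mutant and 5.19 RPKM in control. Of 5 listed for the adult population, Hsd17b3, Ptgds and Akr1c14 were measured, and Sult1e1 was listed at 0 in control and at 0.0165 RPKM in mutant. Ptgds was at 5.31 RPKM in mutant and 10.6 RPKM in control. Hsd3b1 was thus high where its adult-type relative Hsd3b6 was near the floor.

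Markers of other somatic cells were also lower in mutant. Macrophage markers lay below 0 for 12 of 12 found, 11 of them past the 2-fold rule, with a summed level of 1660 RPKM in mutant and 4578 RPKM in control (36.3% of control, beside 35.0% for the steroidogenesis genes). Sertoli markers lay below 0 for 14 of 14 (3 past the rule), and their sum was 257 RPKM in mutant and 533 RPKM in control, or 48.2%. Peritubular myoid markers lay below 0 for 6 of 6 measured (2 past the rule), with sums over the 7 found of 69.8 RPKM in mutant and 158 RPKM in control. Interstitial fibroblast markers lay below 0 for 9 of 9 (3 past the rule), with sums of 633 RPKM in mutant and 1507 RPKM in control. Most of these sums came from Col3a1, whose entry holds a second gene, and without it they were 129 RPKM in mutant and 227 RPKM in control (56.8% of control). None of these markers was at 0. Endothelial markers differed from that picture, with 4 of 10 below 0, sums of 92.1 RPKM in mutant and 88.4 RPKM in control, and a median of 0.10 that turned to -0.42 after rescaling to the germ cell markers and to -0.14 where an RPKM of 5 was required. Germ cell markers lay above 0 for 13 of 15, with sums of 1287 RPKM in mutant and 952 RPKM in control, a direction that the same rescaling removes by construction. Of these, 1 was past the rule upward (Zbtb16, log2 difference 1.11) and 1 downward (Sall4, -1.23). The part of these cell type differences in the values of the members and of the pathway genes was not tested. Wt1, Tcf21, Nr2f2 and Dhh stand in both a pathway list and a list of other cell types, and Mc2r, Akr1c14 and Sult1e1 in both a pathway list and a Leydig list.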

How the data were processed

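RNA from bead-selected testis cells was sequenced in 4 libraries. Per the submitters' processing notes, TopHat2 2.0.11 and GRCm38 were used; the sources used here do not state how reads were counted, on which annotation, or how libraries were combined. The deposited table holds RPKM, per the file headers, in 1 column for both libraries of a genotype. A linear model on single libraries, planned for a table with a value per library, could not be fitted, and a 2-fold difference without a p-value took its place. Members and gene lists were chosen with earlier results of these data known.

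Genes reaching an RPKM of 1 in at least 1 genotype were compared as log2((mutant RPKM + 1) / (control RPKM + 1)). Of 17278 such entries, 774 pool several symbols and were left out of counts over all genes; a repeated symbol was represented by its highest mean, which left 16473 genes. Pooled entries were kept for listed genes. File starts count from 0, so 1 was added. All members were named; in each pathway list, genes past the rule and up to 4 others of highest mean were eligible; genes outside this rule are marked in the text.

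Depth was read from genes with 1 GENCODE M21 transcript of at least 1000 nt, after subtracting a fixed 210 nt from the length. Of values up to 10 reads, 91.0% in mutant and 85.1% in control lay within 0.1 of a whole read. Reads of a member used the transcript GENCODE numbers first, as far as it lies within the row. Intervals at 95% are exact Poisson for a level and exact Clopper-Pearson for a ratio; reads without molecular identifiers are not independent molecules, so they cover counting error only. Shared 50-base stretches and identity came from GENCODE M21 transcripts (Biopython 1.88 global alignment). The depth reading and the 2-fold rule were tested on simulated data. Those data held counting error only and no spread between libraries, so they cannot show how often the rule errs in the present data. Python 3.11.15, pandas 2.3.3 and scipy 1.17.1 were used. Tried alternatives were other pseudocounts, filters, scalings, removal of the length and GC trend, summed repeats and the handling of pooled entries.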

Additional observations from a re-analysis of the deposited data

How the results depend on the processing

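The 9 measured members lay below 0 in all 90 values under 10 other settings, and 6 were past the 2-fold rule under each of them except rescaling to the germ cell markers, where 9 were. Not all of these values are separate checks. With the other filters, summed repeats or pooled entries kept, the members' values were fixed in advance at those reported. Under the germ cell rescaling the members could only move lower. Their median was -1.49 with a pseudocount of 0.1, -1.46 with 0.5, -1.40 after correction for length and GC content and -1.79 after rescaling to the germ cell markers, which multiplied mutant values by 0.662 and moved the median of all genes to -0.52. Genes lower and higher by the rule over the whole table were 716 and 724 as reported, 1107 and 1417 with a pseudocount of 0.1, 381 and 177 after that correction (12202 protein-coding genes tested), and 2720 and 394 after the germ cell rescaling. The number of lower pathway genes, 6 as reported, was 9 with a pseudocount of 0.1 and 7 with 0.5. It was 3 with quantile normalization, 3 after the length and GC correction and 38 after the germ cell rescaling. Of the 6 reported, only Cebpb and Ebp stayed past the rule after the length and GC correction. The cause of these changes was not tested. Leaving out the members in pooled entries, a setting chosen after seeing the data, left 4 of 7 past the rule and a median of -1.24. No paired analysis was possible because each genotype has 1 combined column, and for the same reason no replicate could be left out. With combined values, no difference here can be set against a spread between animals or libraries.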

Other observations

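Other genes of the relaxin and insulin-like peptide family, to which Insl3 belongs, were looked up after the values were seen. Insl6, a germ cell peptide of the testis, was at 0.949 RPKM in mutant and 1.35 RPKM in control. Rln1 was at 0.370 RPKM in mutant and 0.179 RPKM in control, and Rln3 at 0.612 RPKM in mutant and 0.713 RPKM in control. Among the receptors of the family, Rxfp1 was at 0.529 RPKM in mutant and 0.306 RPKM in control, Rxfp4 at 0.202 RPKM in mutant and 0.359 RPKM in control, and Rxfp3 stood at 0.0174 RPKM in mutant and 0.0172 RPKM in control. Apart from the Insl3 entry, Insl6 in control was the 1 value of those named here to reach an RPKM of 1.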
